A study of Mus musculus with 16 samples.

Results

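The open chromatin around 6 receptor genes of the TNF receptor superfamily on mouse chromosome 4 is described here: Tnfrsf1b, Tnfrsf8, Tnfrsf9, Tnfrsf25, Tnfrsf4 and Tnfrsf18. The members are the ATAC-seq regions that overlap 1 of 4 windows of genome build mm9 by at least 1 base. These windows are chr4:144780000-144930000 for Tnfrsf1b and Tnfrsf8, chr4:150250000-150360000 for Tnfrsf9, chr4:151450000-151600000 for Tnfrsf25, and chr4:155370000-155430000 for Tnfrsf4 and Tnfrsf18. They held 115 of the 75363 regions of the whole list, or 2.59% of the 4433 regions on chromosome 4. The windows were chosen by region positions in this same list, since large groups of neighbouring regions had been seen there. Their counts and densities are therefore a description, and no test was run on them.

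ATAC-seq uses a transposase that cuts DNA where it is not packed in nucleosomes, and was applied to CD4+CD25+ regulatory T cells (Treg cells), which hold other immune cells in check. The 16 libraries came from 8 C57BL/6 mice in 8 groups of 2. The non-lymphoid groups were VAT (epididymal fat, a visceral adipose tissue), Muscle (hindlimb muscle after injury), and Colon_Nrp1p and Colon_Nrp1n (lamina propria of the colon), whose names refer to Nrp1, a receptor often used to sort Treg cells. The matching spleen groups of the same mice were Spl_wVAT, Spl_wMus, Spl_wCol_Nrp1p and Spl_wCol_Nrp1n. The deposited values are positions of regions called over the whole series, with no value for any library. A region open in a single group cannot be told apart from a region open in all 8, the read depth of each library is unknown, and Treg identity could not be checked against marker genes. No tissue was compared with its spleen.

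Receptors of this family bind trimeric ligands of the TNF family and signal through adaptor proteins of the TRAF type to NF-kB. Several act as costimulatory receptors on T cells, and Treg cells are known to carry TNFR2, OX40 and GITR at the surface. Tnfrsf1b encodes TNFR2, which binds TNF and supports the expansion of Treg cells. Tnfrsf8 encodes CD30, the receptor of CD30 ligand. Tnfrsf9 encodes CD137, an activation-induced receptor. Tnfrsf25 encodes DR3, the receptor of TL1A and the only one of the 6 whose tail has a death domain. Tnfrsf4 encodes OX40, and Tnfrsf18 encodes GITR.

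The 6 genes stand in the same order along chromosome 4 in the RefSeq gene table of assembly GRCm38.p6 as the windows do in mm9. That table is of another build, so its coordinates were not set beside the regions, which are left without a gene of their own. Tnfrsf1b and Tnfrsf8 are direct neighbours among protein-coding genes, with Dhrs3 and Vps13d on the side of Tnfrsf1b. Tnfrsf4 and Tnfrsf18 are direct neighbours as well, between Sdf4 and Ttll10. Tnfrsf9 lies between Park7, with Errfi1 beyond it, and Per3. Tnfrsf25 lies between Plekhg5 and Espn, followed by Hes2 and Acot7. Between Tnfrsf8 and Tnfrsf9 stand 71 other protein-coding genes, between Tnfrsf9 and Tnfrsf25 there are 14, and between Tnfrsf25 and Tnfrsf4 there are 68. Regions in a window can thus belong to a neighbouring gene.

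The RefSeq promoter table (GRCm38.p6) matched 6 of 6 genes, with 8 start sites. Of these, 4 promoters are printed: the 3 with a match to AP-1, NF-kB or RUNX, and that of Tnfrsf4, which had no match to any marked motif and the lowest GC content. They were picked after the matches were seen, and the other 4 promoters are given by their values. Each line gives the 250 bases before a start site, 5′ to 3′ on the gene's own strand. Capitals mark matches, on both strands, to the letters of AP-1 (TGANTCA), NF-kB (GGNNTTTCC), RUNX (TGTGGT), CRE (TGACGTCA), SP1/KLF (GGGCGG) and the TATA box (TATAAA). The ETS core (GGAA) was counted and not put in capitals; it overlaps every NF-kB match, whose letters contain it on the opposite strand. These positions are on GRCm38.p6 and cannot be set against the mm9 positions of the regions. Whether a region covers any of these promoters was not analysed here.
Tnfrsf8, minus strand, chr4:145315165-145315414: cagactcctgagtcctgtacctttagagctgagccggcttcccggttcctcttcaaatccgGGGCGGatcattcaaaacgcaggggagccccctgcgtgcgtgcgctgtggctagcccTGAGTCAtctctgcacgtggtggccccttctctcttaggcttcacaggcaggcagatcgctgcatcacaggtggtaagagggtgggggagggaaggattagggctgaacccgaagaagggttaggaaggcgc
Tnfrsf9, the second start site, plus strand, chr4:150927749-150927998: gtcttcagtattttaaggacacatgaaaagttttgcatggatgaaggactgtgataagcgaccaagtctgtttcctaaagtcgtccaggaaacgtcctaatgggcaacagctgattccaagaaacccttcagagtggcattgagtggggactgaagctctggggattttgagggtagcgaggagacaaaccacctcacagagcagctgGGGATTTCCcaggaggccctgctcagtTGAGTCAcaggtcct
Tnfrsf25, the first start site, plus strand, chr4:152115684-152115933: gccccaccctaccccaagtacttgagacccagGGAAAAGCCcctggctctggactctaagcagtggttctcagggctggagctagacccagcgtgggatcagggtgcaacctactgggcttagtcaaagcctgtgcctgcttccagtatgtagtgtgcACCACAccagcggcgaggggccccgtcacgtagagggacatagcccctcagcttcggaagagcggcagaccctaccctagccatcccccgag
Tnfrsf4, plus strand, chr4:156013445-156013694: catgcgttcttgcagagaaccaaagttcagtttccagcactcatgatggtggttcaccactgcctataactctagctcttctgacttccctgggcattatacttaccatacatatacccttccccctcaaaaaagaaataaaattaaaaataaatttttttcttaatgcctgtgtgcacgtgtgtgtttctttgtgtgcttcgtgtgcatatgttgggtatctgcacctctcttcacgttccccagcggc

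AP-1 is the site of Fos, Jun and BATF proteins, which act in activated T cells. Its letters were found in the promoter of Tnfrsf8, starting 132 bases before the start site, and in that of the second Tnfrsf9 start site, starting 15 bases before it. That second Tnfrsf9 promoter also held an NF-kB match 42 bases before the start. Of all 32851 promoters in the table, 6.75% held the AP-1 letters and 4.93% the NF-kB letters. The first Tnfrsf25 promoter held an NF-kB and a RUNX match, and the RUNX letters were found in 14.1% of all promoters. SP1/KLF letters were present at Tnfrsf1b, Tnfrsf8 and the first start site of Tnfrsf9, and in 32.7% of all promoters. The promoters of Tnfrsf4, Tnfrsf18 and the second Tnfrsf25 start site held none of the 6 motifs marked by capitals. The CRE, held by 1.55% of all promoters, and the TATA box, held by 12.4%, were in none of the 8. The ETS core was in 8 of 8, as in 93.5% of all. A match describes the letters and is not a measured site.

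Base composition also varied between the member promoters. GC content was lowest at Tnfrsf4, with 42.8%, and at the first Tnfrsf9 start site, with 43.2%. It was 49.6% at the second Tnfrsf9 start site, 56.0% at Tnfrsf18, 60.0% at Tnfrsf8, 62.8% at Tnfrsf1b, and 61.6% and 66.4% at the start sites of Tnfrsf25. The median over all promoters was 52.4%, with quartiles of 45.2% and 61.2%. CpG dinucleotides ranged between 2 at Tnfrsf18 and 14 at the second Tnfrsf25 start site, against a median of 6 over all promoters. All these counts lay within the quartiles of all promoters, which were 2 and 16. The adjacent genes Tnfrsf4 and Tnfrsf18 had 5 and 2 CpGs, whereas the adjacent genes Tnfrsf1b and Tnfrsf8 had 12 each.

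The 4 windows were all rich in open regions, and the Tnfrsf9 window, with its empty ends counted, was the least dense of them. The Tnfrsf1b-Tnfrsf8 window held 41 regions in 150 kb, or 2.73 per 10 kb. The Tnfrsf25 window, of the same length, held 39, or 2.60 per 10 kb. The Tnfrsf4-Tnfrsf18 window held 15 in 60 kb, or 2.50 per 10 kb, and the Tnfrsf9 window 20 in 110 kb, or 1.82 per 10 kb. If the counts are taken as Poisson counts, the exact 95% interval of the density was 1.96 to 3.71 per 10 kb at Tnfrsf1b-Tnfrsf8, 1.85 to 3.55 at Tnfrsf25, 1.40 to 4.12 at Tnfrsf4-Tnfrsf18 and 1.11 to 2.81 at Tnfrsf9. All 4 intervals overlapped. They cover counting error only and say nothing of the spread between mice. Across 10 kb bins, the variance of the counts exceeded their mean at Tnfrsf9 (ratio 1.41), Tnfrsf25 (1.53) and Tnfrsf4-Tnfrsf18 (1.72). It did not at Tnfrsf1b-Tnfrsf8 (0.861). Where the variance exceeded the mean, Poisson intervals may be too narrow.

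Set beside the rest of the genome, the density was 9.56 times the 0.286 regions per 10 kb of chromosomes 1 to 19 and X at Tnfrsf1b-Tnfrsf8, 9.09 times at Tnfrsf25, 8.74 times at Tnfrsf4-Tnfrsf18 and 6.36 times at Tnfrsf9. Chromosome 4 as a whole was near that average, with 0.285 regions per 10 kb. The genome was then cut into bins of each window's length. Of 17558 bins of 150 kb, 11 (0.0626%) held at least the 41 regions of the Tnfrsf1b-Tnfrsf8 window and 17 (0.0968%) at least the 39 of the Tnfrsf25 window. Of 43911 bins of 60 kb, 341 (0.777%) held at least the 15 regions of the Tnfrsf4-Tnfrsf18 window. Of 23948 bins of 110 kb, 431 (1.8%) held at least the 20 of the Tnfrsf9 window. Empty bins made up 49.5% of those of 150 kb, 53.3% of 110 kb and 61.1% of 60 kb. The genome average thus includes much sequence without any region. Since the windows were chosen for their regions and placed around them, these shares describe where the windows stand and test nothing.

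**Figure D1:**
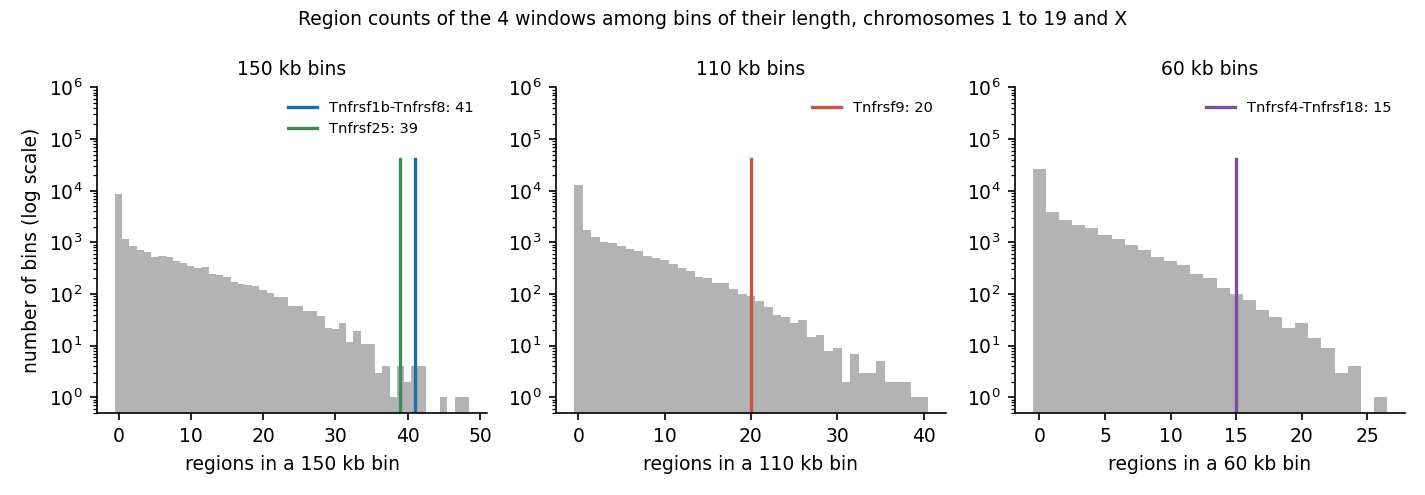
Number of bins (vertical axis, log scale) by the regions they hold (horizontal axis) for bins of 150, 110 and 60 kb over chromosomes 1 to 19 and X. Coloured lines mark the windows of the same length: 41 regions at Tnfrsf1b-Tnfrsf8, 39 at Tnfrsf25, 20 at Tnfrsf9 and 15 at Tnfrsf4-Tnfrsf18, all in the right tail.

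In the Tnfrsf1b-Tnfrsf8 window, open regions were spread over almost the whole length. Neighbours linked at gaps under 12500 bp formed a cluster of 40 regions over 125 kb (mm9, chr4:144784224-144909668), and 1 more region of the window stood beyond it after a gap of 16387 bp. That last region (chr4:144926056-144926241) was the first of a cluster of 5 that continued past the window's border. The gap before it was the longest in any of the 4 windows. Of its 15 bins of 10 kb, 14 held a region, and the fullest held 5 regions each, in the bins 30 to 40 kb and 120 to 130 kb from the window's start. The widest region measured 356 bp (chr4:144801132-144801487). It was followed by a pair of 329 bp, at chr4:144790239-144790567 and chr4:144902431-144902759. The narrowest were 2 regions of 94 bp, at chr4:144784470-144784563 and chr4:144854823-144854916. The closest neighbours lay 17 bp apart, a 290 bp and a 168 bp region that together fill 96.4% of a 475 bp stretch (chr4:144830662-144831136).

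In the Tnfrsf9 window, the regions were grouped in the middle. The first 20 kb and the last 20 kb held no region, so 4 of 11 bins of 10 kb were empty. The largest cluster had 17 regions over 52.5 kb (chr4:150272918-150325412). After a gap of 13365 bp came a compact group of 3 regions, of 158, 212 and 217 bp, within 760 bp (chr4:150338778-150339537). Of its 20 regions, 3 exceeded 300 bp: 355 bp (chr4:150298441-150298795), 349 bp (chr4:150289308-150289656) and 340 bp (chr4:150283915-150284254). All 3 lay inside the cluster. This share, 15%, was the highest of the 4 windows. Its exact binomial 95% interval, 3.21 to 37.9%, contained the 6.23% found outside the windows, so the share does not set this window apart from the list. The narrowest region measured 100 bp (chr4:150291537-150291636). The fullest bins, 30 to 40 kb and 40 to 50 kb from the window's start, held 4 regions each. The closest neighbours lay 70 bp apart (chr4:150314177-150314596).

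In the Tnfrsf25 window, all 39 regions formed 1 cluster over 128 kb (chr4:151460697-151588565), with empty stretches on both sides. The nearest region before the window lay 36463 bp from its border, and the nearest after it 57402 bp away. Inside, the regions were most crowded in the bin 50 to 60 kb from the window's start, with 7 regions, and in the bin 100 to 110 kb from it, with 6. The first of these bins held the longest run of closely spaced regions in the 4 windows. In this run, 5 regions of 108, 215, 150, 156 and 243 bp followed each other at gaps of 124, 280, 239 and 163 bp (chr4:151504499-151506176). Regions covered 52.0% of its 1678 bp. Of 12456 runs on chromosomes 1 to 19 and X, defined as neighbours under 500 bp apart, 170 had 5 or more regions and the longest had 7. The longest gap of the window, 11698 bp, lay between the 2 crowded bins (chr4:151514872-151526569). The closest neighbours lay 40 bp apart (chr4:151560710-151561066), and the narrowest region measured 94 bp (chr4:151512507-151512600).

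In the Tnfrsf4-Tnfrsf18 window, the 15 regions lay within 36.4 kb and all were linked at gaps under 12500 bp. They belonged to a cluster of 17 regions over 48.4 kb (chr4:155366381-155414734), of which 2 regions lay before the window's border, the nearer at chr4:155367101-155367315. With 3.52 regions per 10 kb of its own span this cluster was the densest of the 4, against 3.24 at Tnfrsf9, 3.19 at Tnfrsf1b-Tnfrsf8 and 3.05 at Tnfrsf25. The longest gap inside the window, 6609 bp, was the shortest such maximum of the 4. It lay before the last region, which stood alone when neighbours were linked under 5 kb. The widest region measured 336 bp (chr4:155390543-155390878). A run of 3 regions, of 217, 194 and 287 bp, spanned 1042 bp (chr4:155395529-155396570), with a gap of 45 bp between the last 2. The narrowest were 2 regions of 94 bp, at chr4:155382873-155382966 and chr4:155400339-155400432. The fullest bin, 30 to 40 kb from the window's start, held 5 regions.

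**Figure D2:**
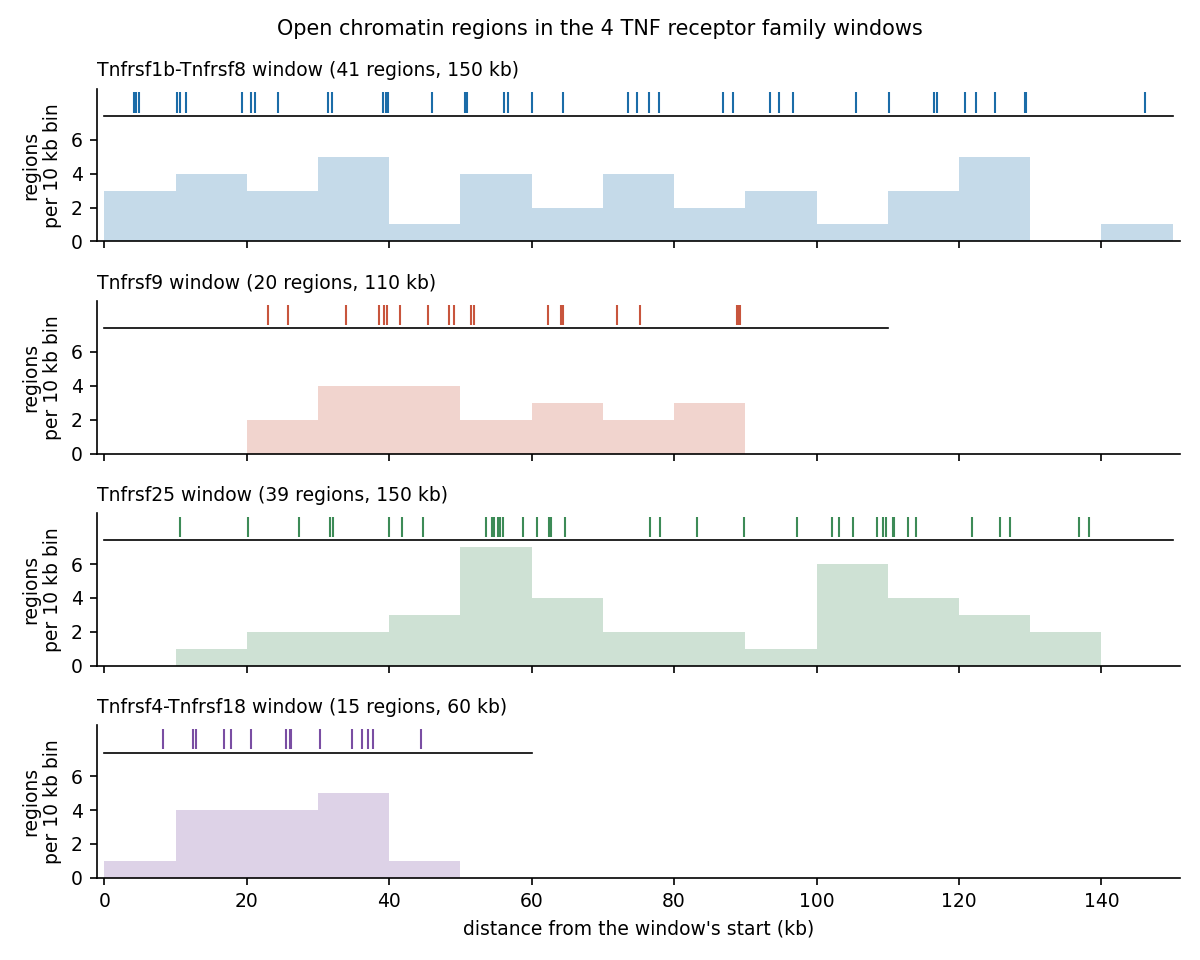
Position of each region (vertical lines above each axis) and number of regions per 10 kb bin (bars) by distance from the window's start (horizontal axis, kb) in the 4 windows. Regions run along most of the Tnfrsf1b-Tnfrsf8 window, leave the first 20 kb and the last 20 kb of the Tnfrsf9 window empty, and peak at 7 per bin in the Tnfrsf25 window.

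The size of the clusters depended on the distance at which neighbours were linked. At 12500 bp, the clusters of the Tnfrsf1b-Tnfrsf8 and Tnfrsf25 windows, with 40 and 39 regions, were larger than those of the Tnfrsf9 and Tnfrsf4-Tnfrsf18 windows, with 17 each. At 5 kb, the largest cluster had 14 regions at Tnfrsf4-Tnfrsf18, 11 at Tnfrsf25, 10 at Tnfrsf9 and 7 at Tnfrsf1b-Tnfrsf8. The Tnfrsf1b-Tnfrsf8 window thus had the largest of the 4 clusters at 12500 bp and the smallest at 5 kb, while the Tnfrsf25 cluster exceeded the Tnfrsf9 cluster at both distances. The long windows were thus built of several groups separated by gaps of 5 kb or more. Such gaps numbered 10 of 40 at Tnfrsf1b-Tnfrsf8, 9 of 38 at Tnfrsf25, 4 of 19 at Tnfrsf9 and 1 of 14 at Tnfrsf4-Tnfrsf18.

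Among all 24047 clusters of 1 or more regions linked at 12500 bp, 6 had at least the 40 regions of the Tnfrsf1b-Tnfrsf8 cluster, itself included, and 10 had at least the 39 of the Tnfrsf25 cluster. The density within both was near the median of large clusters. The 210 clusters of 20 or more regions had a median of 3.12 regions per 10 kb of their span, with quartiles of 2.85 and 3.54. The Tnfrsf1b-Tnfrsf8 cluster had 96 denser ones among them and the Tnfrsf25 cluster 119. Of these 210 clusters, 13 lay on chromosome 4.

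Region widths overlapped between the windows. The median width was 206 bp at Tnfrsf1b-Tnfrsf8 (95% interval from binomial ranks 189 to 224), 199 bp at Tnfrsf9 (168 to 217), 190 bp at Tnfrsf25 (161 to 210) and 205 bp at Tnfrsf4-Tnfrsf18 (175 to 268). All 4 intervals overlapped and contained 191 bp, the median of the regions outside the windows. The Tnfrsf25 window had 0 of 39 regions over 300 bp (exact binomial 95% interval 0 to 9.03%) and a widest region of 273 bp (chr4:151494791-151495063). The widest region reached 356 bp at Tnfrsf1b-Tnfrsf8, 355 bp at Tnfrsf9 and 336 bp at Tnfrsf4-Tnfrsf18. Over all 4 windows 7 of 115 regions, or 6.09%, exceeded 300 bp (2.48 to 12.1%), against 6.23% outside them. Regions share their libraries and calling, so these intervals treat them as more independent than they are.

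Narrow regions were present in every window. The 94 bp of the narrowest regions named above is the smallest width of the whole list, where 1348 regions have it. The 100 bp of the narrowest Tnfrsf9 region is shared by 764 regions of the list. Regions of 150 bp or less made up 8 of 39 at Tnfrsf25, 3 of 15 at Tnfrsf4-Tnfrsf18, 3 of 20 at Tnfrsf9 and 4 of 41 at Tnfrsf1b-Tnfrsf8. Their share over the 4 windows was 15.7% (exact binomial 95% interval 9.55 to 23.6%), against 15.4% outside. Of these 18 narrow regions, 16 (88.9%) had 1 of the 12 exact widths that were far more frequent in this list than the widths next to them, against 92.3% of the narrow regions outside the windows.

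Close neighbours were about as frequent as in the rest of the list, whereas long gaps were rarer. Gaps under 500 bp made up 29 of 111 gaps inside the windows, or 26.1% (exact binomial 95% interval 18.2 to 35.3%), against 22.2% outside. They numbered 11 of 40 at Tnfrsf1b-Tnfrsf8, 6 of 19 at Tnfrsf9, 8 of 38 at Tnfrsf25 and 4 of 14 at Tnfrsf4-Tnfrsf18. Gaps of 5 kb or more made up 24 of 111, or 21.6% (14.4 to 30.4%), against 50.8% outside. The gaps that cross a window's border are not among the 111, and each of them was longer than 5 kb. Gaps of 1 to 5 kb made up 48 of 111, or 43.2% (33.9 to 53.0%), against 20.4% outside. The median gap was 2071.5 bp at Tnfrsf1b-Tnfrsf8, 2127 bp at Tnfrsf9, 1773.5 bp at Tnfrsf25 and 1802 bp at Tnfrsf4-Tnfrsf18, against 5210 bp outside. The windows were chosen for crowded regions, which also sets these gaps, so the values describe how the crowding is built.

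**Figure D3:**
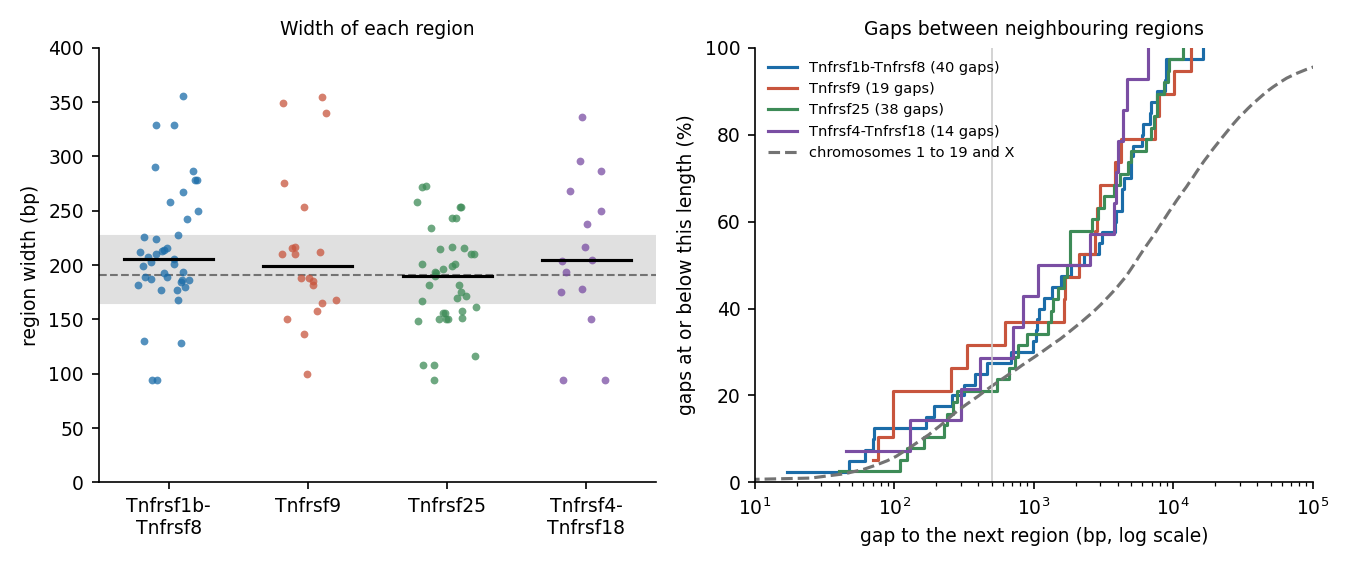
Left, the width of each region (vertical axis, bp) in the 4 windows; black bars are medians, and the dashed line and grey band the median (191 bp) and quartiles of the list outside the windows. Right, the share of gaps (vertical axis, %) at or below a given length (horizontal axis, bp, log scale). The dashed line is chromosomes 1 to 19 and X. At 500 bp (grey line) it stands at 22.2%. There the windows stand at 27.5% (Tnfrsf1b-Tnfrsf8), 31.6% (Tnfrsf9), 21.1% (Tnfrsf25) and 28.6% (Tnfrsf4-Tnfrsf18). Among shorter gaps, the curves other than that of Tnfrsf25 run above the dashed line over part of the range, most at Tnfrsf9. Beyond 1 kb all 4 curves lie above it.

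Runs of regions under 500 bp apart occurred in all 4 windows. There were 9 such runs at Tnfrsf1b-Tnfrsf8, 5 at Tnfrsf9, 5 at Tnfrsf25 and 3 at Tnfrsf4-Tnfrsf18. They held 20 of 41 regions at Tnfrsf1b-Tnfrsf8, 11 of 20 at Tnfrsf9, 13 of 39 at Tnfrsf25 and 7 of 15 at Tnfrsf4-Tnfrsf18. Over all windows this was 44.3% of the regions (exact binomial 95% interval 35.1 to 53.9%), against 38.7% outside. Runs of 3 or more regions numbered 2 at Tnfrsf1b-Tnfrsf8 and 1 in each other window. At Tnfrsf1b-Tnfrsf8 they spanned 841 bp (chr4:144784224-144785064) and 846 bp (chr4:144819116-144819961). The 841 bp run had regions of 199, 94 and 242 bp, which covered 63.6% of it. The 846 bp run had regions of 193, 206 and 194 bp, which covered 70.1%.

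No region straddled a window's border. The regions nearest to the borders showed how much the limits matter. At Tnfrsf4-Tnfrsf18 the next region before the window lay 2685 bp outside it, and at Tnfrsf1b-Tnfrsf8 the next region after the window lay 1770 bp outside (chr4:144931770-144932016). Inside, the outermost regions lay 3759 bp from the border at Tnfrsf1b-Tnfrsf8, 8286 bp at Tnfrsf4-Tnfrsf18, 10697 bp at Tnfrsf25 and 20463 bp at Tnfrsf9. The Tnfrsf25 window was the most clearly bounded of the 4.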

How the data were processed

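The deposited file is 1 list of open chromatin regions of the whole series, and the authors gave chromosome, start and end in base pairs on build mm9, per the file headers and the labels. It has no score, count or signal and no column for any library. HOMER 4.6, Picard 1.130, SAMtools 1.3, Bowtie2 2.2.4 and cutadapt 1.8.3 are listed, without roles or settings, per the submitters' processing notes. Per the labels' protocols, 10000 sorted cells were transposed for 60 min at 37 °C and small fragments (under 600 bp) were selected. Pooling, merging, thresholds and any shift of cut positions are steps not given in the sources used here, which decide which regions are listed and how wide they are. Depth is unknown.

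Starts were raised by 1 to a 1-based count. Gaps, runs (gaps under 500 bp) and clusters (gaps under 12500 bp) were computed over chromosomes 1 to 19 and X with Python 3.11.15, pandas 2.3.3, NumPy 2.4.6 and SciPy 1.17.1, without the 7 regions on Y. Bins of each window's length ran from each chromosome's first base, and empty bins were kept. A frequent exact width held over 5 times the median number of regions at widths within 8 bp, taken as at least 10. Clustering and width detection were run on simulated data with widely separated groups and strongly planted widths. That checks the code in an easy case and does not show how well it separates groups or widths in these data. Intervals treat regions as independent draws. No test between groups was run, and the planned comparison of tissue and spleen needs values per library. The 6 genes, the windows and the tests were chosen with earlier results of these data known. Named regions were the widest, narrowest, first and last, the largest cluster, the longest gap, the fullest bin and the closest pair of each window; the runs, the regions next to the widest and the regions around the borders were named after their values were seen.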

Additional observations from a re-analysis of the deposited data

How the results depend on the processing

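No paired analysis was possible because a single pooled list was analysed, although each tissue sample shares its mouse with a spleen sample, and leaving out replicates was impossible too. Of 44 values recomputed under the other settings, 34 stayed within 1.5 times (counts) or within the interval of the value (densities and widths). These 34 include the count of each window by region midpoint. Since no region straddled a border, those counts could not change and show nothing of robustness. Keeping only regions of at least 191 bp, the median of the list, left 38310 of the 75363 regions of the list, so a fall is given by construction. It left 26 of 41 regions at Tnfrsf1b-Tnfrsf8, 10 of 20 at Tnfrsf9 and 19 of 39 at Tnfrsf25. At Tnfrsf4-Tnfrsf18 it left 10 of 15, which is within 1.5 times. Widening the windows by 50 kb on both sides brought in sparser flanks and lowered the density in all 4. It fell from 2.73 to 1.88 regions per 10 kb at Tnfrsf1b-Tnfrsf8 and from 2.60 to 1.68 at Tnfrsf25. It fell from 2.50 to 1.44 at Tnfrsf4-Tnfrsf18 and from 1.82 to 1.29 at Tnfrsf9. The last 2 values stayed within their intervals (1.40 to 4.12 and 1.11 to 2.81), which does not mean that these windows fell less. Merging regions under 500 bp apart raised the median width to 227 bp at Tnfrsf1b-Tnfrsf8 and 234.5 bp at Tnfrsf9, by construction, and put the Tnfrsf25 window, with 31 regions, ahead of the Tnfrsf1b-Tnfrsf8 window, with 30. Linking under 5 kb cut the largest cluster to 7 regions at Tnfrsf1b-Tnfrsf8, 10 at Tnfrsf9 and 11 at Tnfrsf25. The Tnfrsf9 window had the lowest density of the 4 under the window as given, widened or with merged regions. This rank depends on the borders, since all these settings count the empty ends of that window. Over the span of its largest cluster, Tnfrsf9 had 3.24 regions per 10 kb. That was above the 3.19 at Tnfrsf1b-Tnfrsf8 and the 3.05 at Tnfrsf25, and below the 3.52 at Tnfrsf4-Tnfrsf18. Depth is unknown, so empty stretches, such as the ends of the Tnfrsf9 window, are not shown to be closed.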

Other observations

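The stretch of chromosome 4 from the first window's start to the last window's end (mm9, chr4:144780000-155430000) held 541 regions over 10.65 Mb. The 4 windows made up 4.41% of its length and held 115 of these regions, or 21.3%. The other 426 regions lay at 0.418 per 10 kb, which was 1.47 times the density of the whole chromosome. By density, the receptor windows thus stand in a part of chromosome 4 that is richer in open regions than the chromosome on average. Neighbours there were not closer together, with a median gap of 5918 bp against 5068.5 bp on chromosome 4. The ends of the stretch were set by windows chosen for crowded regions. The regions between the windows had a median width of 192 bp, against 199 bp inside the windows (95% intervals from binomial ranks 183 to 196 bp and 188 to 210 bp). Regions of the 12 frequent exact widths made up 17.6% of them (exact binomial 95% interval 14.1 to 21.6%) and 13.9% of those in the windows (8.17 to 21.6%), against 14.2% on chromosomes 1 to 19 and X and 14.4% on chromosome 4.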
